A study of Danio rerio with 12 samples.

Results

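Desmin double mutant muscle was compared with wild-type (WT) muscle over 2 muscles at once, to describe which genes differed between the genotypes in the same way in extraocular muscle (EOM, which turns the eyeball) and in trunk muscle. All 12 of the 12 libraries of the series were used. They were chosen by their labels alone, and the genotype was tested in a model that also held the muscle, with 6 libraries a side. The mutant groups were EOM and trunk muscle of desma-/-;desmb-/- zebrafish, which carry mutations in both desmin genes, and the control groups were EOM and trunk muscle of WT fish. All fish were of strain AB and 20 months old, and each of the 4 groups held 3 libraries. Per the labels, the WT fish were taken from the same line as had served to make the double mutant. The series design speaks of a knock-down of desmin, whereas the sample labels give the genotype as a double mutant, and the sample labels were followed. The design also speaks of several time points, and the labels of these samples hold only this one. The labels name each library as a numbered group, say nothing of pooling, and do not tie EOM libraries to trunk libraries of the same animal, so the p-values measure the spread between these libraries. The labels give myofibres as the cell type, but the protocol describes dissected muscle tissue, which also holds vessels, nerve, connective tissue and blood cells.

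Desmin is the muscle-specific intermediate filament protein. It runs around the Z-discs, where the thin filaments of neighbouring sarcomeres are anchored, ties adjacent myofibrils to each other, and links them to the nuclei, the mitochondria and the costameres, the attachment sites of the fibre membrane. In people, mutations of desmin cause a skeletal and cardiac muscle disease in which Z-disc proteins accumulate, and extraocular muscle is known to be spared in many muscular dystrophies.

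The mutated genes were examined first. The symbol table used here gives the symbol DES to 2 gene IDs and does not tell which is desma and which desmb. Levels are given as CPM, the count of a gene scaled to a library of 1 M (mega) sense reads in genes, made comparable between libraries by TMM, a method that sets the bulk of genes equal. DES ENSDARG00000058656.6 had 26.2, 36.1 and 42.6 CPM in mutant EOM, against 573, 685 and 649 CPM in WT EOM, and 17.7, 30.7 and 49.3 CPM in mutant trunk, against 619, 679 and 559.6 CPM in WT trunk. All 6 mutant libraries lay below all 6 WT libraries, and none was at 0. Over both muscles the gene fell, with a log2 fold change −4.22 ± 0.22 with adjusted p = 4.59e-08 (± SE; edgeR quasi-likelihood test, Benjamini-Hochberg adjustment over all tested genes). DES ENSDARG00000005221.8 was close to the floor of 3 reads in every library, with 54 reads in the 6 mutant libraries and 28 reads in the 6 WT libraries, and did not pass the test (log2 fold change 0.71 ± 0.38 with adjusted p = 0.26, edgeR).

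Each library held 46.1 to 74.1 M (mega) sense reads in genes, so 3 reads corresponded to 0.0373 to 0.0754 CPM. In a principal component analysis the muscles lay apart on the leading component, with 77.8% of the variance, and all 6 mutant libraries lay apart from all 6 WT libraries on the next, with 7.84%. Muscle fibre markers were present at high level in every library. The summed level of 24 of them was 59400 to 68600 CPM in mutant EOM, against 67500 to 79300 CPM in WT EOM, and 206000 to 257000 CPM in mutant trunk, against 189000 to 238000 CPM in WT trunk. Photoreceptor markers differed widely between libraries. Their sum was 116 to 322 CPM in mutant EOM, against 78.1 to 717 CPM in WT EOM, and 7.49 to 8.26 CPM in mutant trunk, against 16.4 to 143 CPM in WT trunk. The trunk sums were thus lower in every mutant library, while the EOM ranges overlapped. Of the 37 photoreceptor markers tested, 2 were called lower in mutants. This was a share of 5.41%, against 12.1% of all tested genes called in either direction and 5.23% called lower. None was consistent between the muscles in the sense defined next. Of their 37 fold changes, 5 were positive, and the median log2 fold change was −1.47 (−0.883 in EOM and −1.81 in trunk).

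Genes with an adjusted p under 0.05 in the fit of all 12 libraries were called. Of 19687 tested genes, 2378 were called, which is 12.1%. The 1349 genes higher in mutants were 6.85% of those tested, and the 1029 genes lower in mutants were 5.23%. A called gene was counted as consistent in both muscles when its fold change had the same sign in a separate fit of each muscle and its 3 mutant libraries lay all above or all below the 3 WT libraries in each muscle. This held for 1459 genes, 7.41% of those tested and 61.4% of those called. Of these, 903 were higher in mutants (4.59% of tested genes) and 556 were lower (2.82%). Over all tested genes, called or not, 1818 (9.23%) showed such a separation in the same direction in each muscle. For a consistent gene described below, a lack of overlap within each muscle is given by its choice and is no added evidence.

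Among the 1459 consistent genes, 338 were at least 2-fold higher and 179 at least 2-fold lower in mutants. The median log2 fold change was 0.83 over the higher genes and −0.74 over the lower genes, against −0.03 over all tested genes. These medians describe genes that were chosen by this same contrast. Using both muscles brought in genes that neither muscle alone had called: 588 of the 1459 passed in neither separate fit of 6 libraries, and 320 passed in both. None of the 2378 called genes had fold changes of opposite sign in the separate fits, and for 229 of them only 1 muscle could be fitted because the level in the other was too low. The fit of both muscles assumes 1 shared effect, in which opposite effects cancel. Genes with opposite effects were thus unlikely to be called, so this count says little about agreement between the muscles. The size of the consistent changes was larger in trunk for most genes. The median absolute log2 fold change was 0.71 in EOM and 0.88 in trunk, and 484 of 1459 genes had the larger change in EOM. Tested gene by gene, the mutant effect differed between the muscles for 18 of 19687 genes (0.0914%), of which 4 were among the consistent genes.

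**Figure D1:**
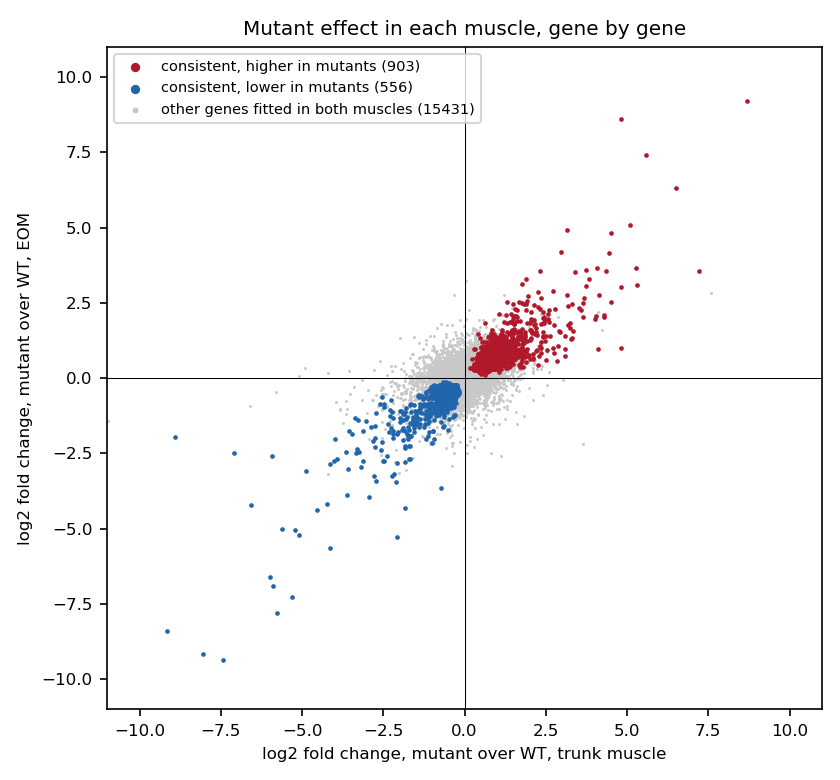
Log2 fold change of desmin mutants over WT in EOM (vertical axis) against that in trunk muscle (horizontal axis), each from a fit of the 6 libraries of that muscle, with 1 point per gene. The 903 consistent higher genes (red) and 556 consistent lower genes (blue) lie to the upper right and lower left of the origin by definition, and the other 15431 genes fitted in both muscles (grey) gather around 0.

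The largest increases were in genes close to absent from WT muscle. The gene zgc:198329 had 1.08, 1.21 and 0.734 CPM in mutant EOM, against 0, 0 and 0 CPM in WT EOM, and 1.35, 0.912 and 1.15 CPM in mutant trunk, against 0, 0 and 0 CPM in WT trunk. It had 400 reads in the mutant libraries and none in the WT libraries, and was at least 118-fold higher in mutants when WT was set to 3 reads over its 6 libraries (edgeR, adjusted p = 6.76e-06). The clone-named gene si:ch211-57b15.2 had 435 reads in mutant and 4 reads in WT libraries (edgeR, log2 fold change 6.36 ± 0.52 with adjusted p = 2.91e-06). For amy2a, which encodes a starch-digesting amylase of the exocrine pancreas, there were 2.88, 1.67 and 2.74 CPM in mutant EOM, against 0.076, 0.14 and 0.0298 CPM in WT EOM, and 1.09, 0.874 and 0.941 CPM in mutant trunk, against 0, 0.0251 and 0.101 CPM in WT trunk. Every mutant library of each muscle exceeded every WT library of amy2a (log2 fold change 4.73 ± 0.39 with adjusted p = 3.35e-06, edgeR). Further down the order were slx4ip, whose human product binds a scaffold of DNA repair nucleases (log2 fold change 4.19 ± 0.34 with adjusted p = 2.54e-06, edgeR), and tbx16l, a T-box transcription factor gene of mesoderm development in zebrafish (log2 fold change 4.13 ± 0.39 with adjusted p = 1.22e-05, edgeR). The opsin gene tmtops2a, of a family of light receptors found in many teleost tissues, had 6.75, 5.62 and 5.36 CPM in mutant EOM, against 0.714, 0.559 and 0.254 CPM in WT EOM, and 2.58, 3.31 and 2.7 CPM in mutant trunk, against 0.429, 0.226 and 0.151 CPM in WT trunk. Its lowest mutant library, in trunk, stood above its highest WT library, in EOM (log2 fold change 3.47 ± 0.25 with adjusted p = 7.31e-07, edgeR). The gene ifi44a8, of a family induced by interferon, rose as well (log2 fold change 3.05 ± 0.52 with adjusted p = 0.00234, edgeR), with mutant trunk libraries spread from 1.05 to 9.06 CPM. The other 5 of the 12 largest increases were zgc:172051, zgc:101699, si:dkey-251i10.2, si:dkey-7i4.24 and si:ch211-183d5.2, with log2 fold changes between 3.32 and 4.27.

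Several of the largest decreases left almost no transcript in mutants. The gene taco1, whose product activates translation of a mitochondrially encoded subunit of cytochrome oxidase, had 0.124, 0.242 and 0.111 CPM in mutant EOM, against 4.6, 7.69 and 5.93 CPM in WT EOM, and 0.304, 0.114 and 0.0837 CPM in mutant trunk, against 4.53, 5.45 and 7.42 CPM in WT trunk. The genotypes were far apart in both muscles, and within each genotype the ranges of EOM and trunk overlapped (log2 fold change −5.18 ± 0.28 with adjusted p = 4.59e-08, edgeR). For ago3a, an Argonaute gene whose product carries small RNAs that silence transcripts, there were 0.0994, 0.204 and 0.235 CPM in mutant EOM, against 9.04, 8.56 and 9.46 CPM in WT EOM, and 0.673, 1.1 and 1.17 CPM in mutant trunk, against 19.6, 15 and 18.1 CPM in WT trunk. Levels were higher in trunk than in EOM in both genotypes, and all mutant libraries lay under all WT libraries (log2 fold change −4.77 ± 0.27 with adjusted p = 1.06e-07, edgeR). The cadherin gene cdh29 had 8 reads in mutant and 656 reads in WT libraries (log2 fold change −6.38 ± 0.39 with adjusted p = 1.28e-07, edgeR), and si:dkey-15f23.2 had 5 reads in mutant and 495 reads in WT libraries (log2 fold change −6.54 ± 0.47 with adjusted p = 7.31e-07, edgeR). The gene nlrc8, of a family of intracellular immune receptors, had 1.01, 0.701 and 0.762 CPM in mutant EOM, against 6.24, 7.88 and 6.22 CPM in WT EOM, and 0.934, 1.25 and 1.19 CPM in mutant trunk, against 16.8, 15.4 and 9.68 CPM in WT trunk. The mutant ranges of EOM and trunk overlapped, and all WT trunk libraries lay above the WT EOM libraries (log2 fold change −3.33 ± 0.18 with adjusted p = 4.59e-08, edgeR). Further decreases were in ABCA12, a lipid transporter gene of the skin barrier (−3.73 ± 0.56), in pm20d1.1, the gene of a secreted enzyme that joins amino acids to fatty acids (−3.63 ± 0.53), in acbd4, an acyl-CoA binding protein gene (−2.97 ± 0.25), and in ly6m6 (−2.82 ± 0.48), all as log2 fold change ± SE. Of 14 skin epithelium markers, 2 were called lower and none higher, and 3 of 14 fold changes were positive. The calls were a share of 14.3%, against 12.1% of all genes called in either direction and 5.23% called lower. The median log2 fold change of the markers was −0.953 (−0.441 in EOM and −1.61 in trunk). Their sum was 1660 to 1900 CPM in mutant EOM, against 1500 to 1760 CPM in WT EOM, and 471 to 561 CPM in mutant trunk, against 416 to 856 CPM in WT trunk. The part of skin in the ABCA12 result was not tested. The other 3 large decreases were in si:dkey-121n8.5, si:dkey-250k10.1 and si:ch211-236p5.3, with log2 fold changes between −3.34 and −2.84.

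**Figure D2:**
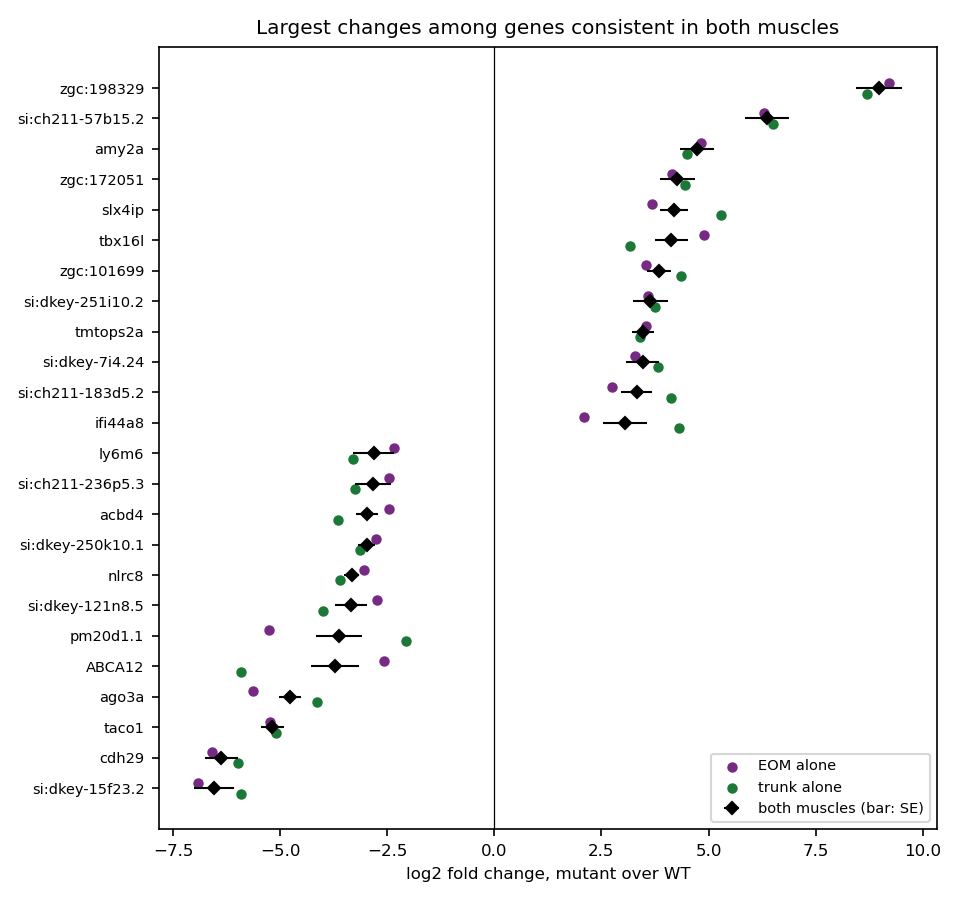
Log2 fold change of mutants over WT (horizontal axis) for the 12 largest increases and 12 largest decreases among consistent genes with an own symbol, in order of size. Black diamonds are the fit of both muscles with its SE, and purple and green circles are the separate fits of EOM and trunk; for each gene both circles lie on the same side of 0, as the choice of genes requires.

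Genes of known function were described through 29 lists, which held 1360 tested genes. Of these, 166 rose and 73 fell in mutants, 239 in all, and 166 of the 239 were consistent in both muscles. The lists of antigen presentation, complement, leukocytes and collagens had the largest shares of calls (71.4%, 66.7%, 63.4% and 41%), and these calls were nearly all increases. Calls among mitochondrial assembly and calcium handling genes were nearly all decreases, at 18.6% and 14.5% of the genes tested. Z-disc and contractile genes were called at 17.2% and 12.9%, and protein turnover and muscle stem cell genes at 1.69% and 8.7%. The share over all tested genes was 12.1%. In the antigen presentation, complement and leukocyte lists most genes passed the test, and in the other lists named here most did not.

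**Figure D3:**
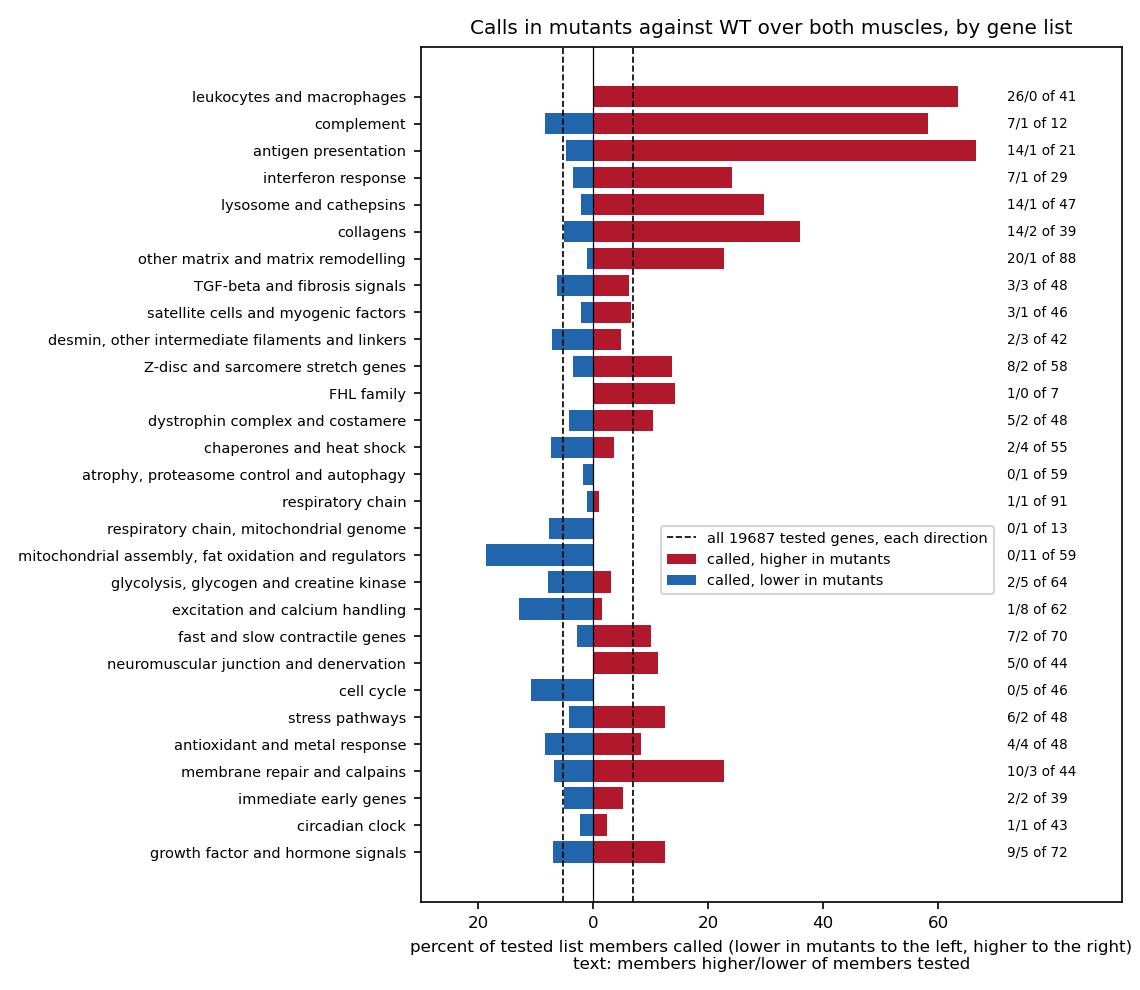
Percent of the tested members of each gene list that were called in mutants against WT over both muscles, higher in mutants to the right (red) and lower to the left (blue), with the counts of higher and lower members beside each bar. Dashed lines mark the shares of all 19687 tested genes, 6.85% higher and 5.23% lower; leukocyte, complement, antigen presentation and collagen bars reach farthest to the right, and mitochondrial assembly and fat oxidation reaches farthest to the left.

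Leukocyte genes were higher in mutants in both muscles. Of 41 tested leukocyte and macrophage genes, 26 were called higher and none lower, 24 of them were consistent, and the median log2 fold change was 0.78 (0.59 in EOM and 0.98 in trunk). Their summed level was 1590 to 1890 CPM in mutant EOM, against 1220 to 1380 CPM in WT EOM, and 615 to 945 CPM in mutant trunk, against 401 to 425 CPM in WT trunk. The list shares c1qa, c1qb, c1qc, cd74a and cd74b with the complement and antigen presentation lists. Without these 5 genes, a count made after the data were seen, 21 of 36 were called higher and none lower, and the sum was 825 to 931 CPM in mutant EOM, against 675 to 802 CPM in WT EOM, and 313 to 383 CPM in mutant trunk, against 228 to 248 CPM in WT trunk. In bulk tissue, a change in the number of cells of a type and a change of RNA per cell cannot be told apart. The gene NCF4, which encodes a subunit of the phagocyte oxidase, had 1.59, 1.38 and 1.63 CPM in mutant EOM, against 0.304, 0.521 and 0.298 CPM in WT EOM, and 0.847, 0.798 and 0.607 CPM in mutant trunk, against 0.135, 0.1 and 0.176 CPM in WT trunk. Each muscle showed a clear gap between the genotypes (log2 fold change 2.18 ± 0.23 with adjusted p = 3.4e-05, edgeR). The oxidase's catalytic subunit gene cybb rose too (log2 fold change 0.93 ± 0.10 with adjusted p = 5.77e-05, edgeR). So did ptprc, the pan-leukocyte surface phosphatase gene known as CD45 (log2 fold change 0.81 ± 0.096 with adjusted p = 8.35e-05, edgeR), the macrophage scavenger receptor gene marco (log2 fold change 0.92 ± 0.11 with adjusted p = 9.03e-05, edgeR), and csf1ra, a receptor gene on which macrophages depend (log2 fold change 0.95 ± 0.20 with adjusted p = 0.00578, edgeR). Both copies of the myeloid transcription factor PU.1 gene rose, spi1a by 0.97 ± 0.12 and SPI1 by 1.03 ± 0.12 (log2, ± SE). Progranulin gene grna, active in macrophages and lysosomes, had 29.7, 27.8 and 26.9 CPM in mutant EOM, against 15.1, 16.4 and 16.2 CPM in WT EOM, and 28.6, 20.3 and 18.9 CPM in mutant trunk, against 9.77, 9.64 and 10.9 CPM in WT trunk, and its genotypes did not overlap in either muscle (log2 fold change 0.99 ± 0.11 with adjusted p = 5.5e-05, edgeR).

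Not every macrophage gene moved. The lipid carrier gene apoeb and the lysosomal marker gene cd68, picked out after their values were seen, had log2 fold changes of −0.18 (edgeR, adjusted p = 0.36) and 0.00081 (edgeR, adjusted p = 0.998). Among 16 lymphocyte markers, 3 were called higher and 1 lower, a share of 25% against 12.1% of all genes. The higher ones were the T-cell kinase gene ZAP70 (1.51 ± 0.26), the B-cell kinase gene blk (1.14 ± 0.18) and the helper T-cell receptor gene cd4-1 (1.58 ± 0.34), and the lower one was the immunoglobulin heavy chain gene ighm (−1.62 ± 0.38), as log2 fold change ± SE. The 3 higher genes were consistent in both muscles, and ighm was not. The summed lymphocyte level was 40 to 42.1 CPM in mutant EOM, against 30.4 to 42.2 CPM in WT EOM, and 19.7 to 24.4 CPM in mutant trunk, against 21 to 27.8 CPM in WT trunk, so these ranges overlapped. Of 6 neutrophil markers, CSF3R, the receptor gene for granulocyte growth factor, was the 1 call, and it was higher (log2 fold change 1.06 ± 0.23 with adjusted p = 0.00671, edgeR). This was a share of 16.7% against 12.1% of all genes. Of the 6 fold changes 4 were positive, and the median log2 fold change was 0.0392 in EOM and 0.363 in trunk. The summed neutrophil level was 119 to 133 CPM in mutant EOM, against 113 to 138 CPM in WT EOM, so these ranges overlapped. In trunk the sum was at least 85.7 CPM in mutants, against 73.9 to 81.9 CPM in WT.

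Most complement and antigen presentation genes rose too, among them the 5 that the leukocyte list also holds. Of 12 tested complement genes, 7 were called higher and 1 lower, with a median log2 fold change of 0.545. The genes of the C1q chains, which start the classical pathway and are made by macrophages, rose together: c1qb (0.88 ± 0.14), c1qc (0.78 ± 0.13) and c1qa (0.78 ± 0.15). Complement factor gene c4b had 104.03, 112.2 and 106.3 CPM in mutant EOM, against 59.9, 56.4 and 77.4 CPM in WT EOM, and 63.5, 34.7 and 28.2 CPM in mutant trunk, against 18.1, 18.2 and 16.1 CPM in WT trunk. Mutant trunk replicate 1 stood well above the other mutant trunk libraries, and the genotypes stayed apart (log2 fold change 1.00 ± 0.18 with adjusted p = 0.002, edgeR). The 1 lower member was c7b (log2 fold change −0.56 ± 0.16 with adjusted p = 0.0301, edgeR), a gene of the membrane attack complex. It was not consistent in both muscles.

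Of 21 tested antigen presentation genes, 14 were called higher and 1 lower (median log2 fold change 0.775). The class II gene mhc2daa had 268, 287 and 255 CPM in mutant EOM, against 134, 141 and 137 CPM in WT EOM, and 219.9, 170.3 and 114 CPM in mutant trunk, against 56.8, 59.6 and 52.9 CPM in WT trunk. Mutant libraries exceeded WT libraries in each muscle, and mutant trunk libraries varied more among themselves than WT trunk libraries did (log2 fold change 1.27 ± 0.15 with adjusted p = 7.69e-05, edgeR). The invariant chain gene cd74b, whose product escorts class II molecules, had 291, 308 and 259.9 CPM in mutant EOM, against 163, 171 and 158 CPM in WT EOM, and 174, 138 and 95 CPM in mutant trunk, against 49.4, 45.9 and 48.9 CPM in WT trunk (log2 fold change 1.15 ± 0.15 with adjusted p = 0.000207, edgeR), likewise without overlap. The genes of the immunoproteasome, the proteasome form that cuts peptides for class I molecules, also rose: PSMB8 (1.64 ± 0.26), PSMB9 (1.53 ± 0.36) and PSMB10 (1.34 ± 0.21), with those of its activator PSME1 (0.91 ± 0.13) and PSME2 (0.69 ± 0.10). In EOM and trunk in turn, the log2 fold change was 0.999 and 2.36 for PSMB8, 0.613 and 2.5 for PSMB9, and 0.753 and 1.98 for PSMB10. These differences between muscles did not pass their own test (edgeR, adjusted p = 0.217, 0.173 and 0.121). The class II transactivator gene ciita, which switches on class II genes, was higher by 0.78 ± 0.17, and the peptide transporter gene tap2a by 1.06 ± 0.31. The call of tap2a was not consistent in both muscles. The class I gene mhc1uba went the other way, with 55.7, 41.7 and 45.8 CPM in mutant EOM, against 147, 105.7 and 119 CPM in WT EOM, and 46.3, 70.9 and 42.9 CPM in mutant trunk, against 155, 238 and 92.2 CPM in WT trunk. All mutant libraries of a muscle lay below its WT libraries (log2 fold change −1.49 ± 0.20 with adjusted p = 0.000311, edgeR). The summed level of the list was 2050 to 2350 CPM in mutant EOM, against 1650 to 1680 CPM in WT EOM, and 1340 to 2010 CPM in mutant trunk, against 935 to 1210 CPM in WT trunk. The part of the leukocyte markers in the complement and antigen presentation results was not tested.

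**Figure D4:**
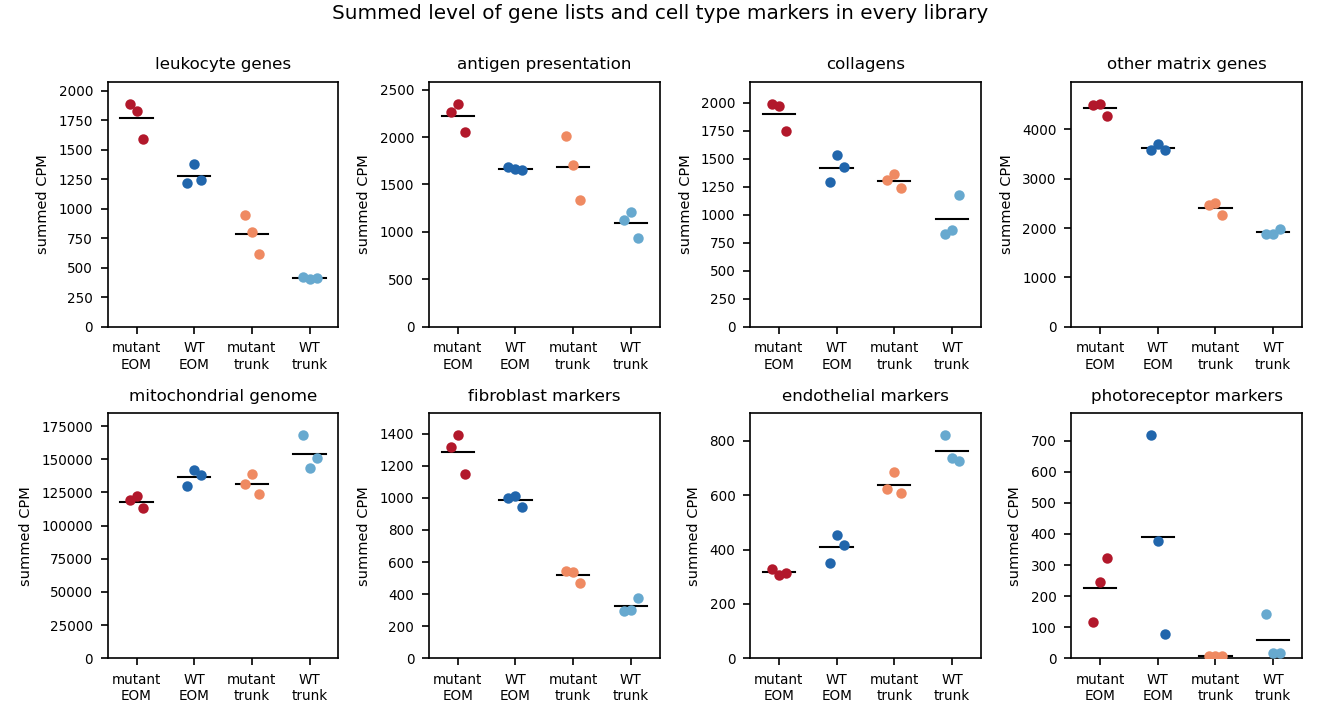
Summed level of 5 gene lists and 3 sets of cell type markers (vertical axes, summed CPM from 0) in each of the 12 libraries, by group, with black lines at the group means of 3 libraries. Leukocyte, antigen presentation, collagen, other matrix and fibroblast sums are higher in the mutant libraries of each muscle, endothelial and mitochondrial genome sums are lower, and the photoreceptor sums vary most between libraries.

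Of 29 interferon-response genes tested, 7 were called higher and 1 lower, a share of 27.6% against 12.1% of all genes, and 4 of the 8 calls held whichever single library was dropped. The median log2 fold change was 0.17, and 0.356 without WT EOM replicate 1. The transcription factor gene IRF8, needed for macrophage development, had 14.5, 15 and 12.3 CPM in mutant EOM, against 11.3, 8.39 and 7.55 CPM in WT EOM, and 10, 7.6 and 6.53 CPM in mutant trunk, against 3.05, 3.14 and 3.19 CPM in WT trunk. Within each muscle, mutant and WT libraries did not overlap (log2 fold change 0.97 ± 0.16 with adjusted p = 0.00118, edgeR). Its relative irf1b rose (log2 fold change 1.05 ± 0.24 with adjusted p = 0.01, edgeR), and so did parp9, an ADP-ribosyltransferase gene of the interferon response (log2 fold change 0.48 ± 0.12 with adjusted p = 0.016, edgeR). The ubiquitin-like modifier gene isg15, a classical interferon target, fell (log2 fold change −0.94 ± 0.28 with adjusted p = 0.0439, edgeR). Beside these, the whole leukocyte list had 26 of 41 genes called higher, and its part in the interferon result was not tested.

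Among 47 lysosomal and cathepsin genes, 14 were called higher and 1 lower, with a median of 0.16. This was a share of 31.9% against 12.1% of all genes. The sterol carrier gene NPC2 ENSDARG00000096979.2 had 5, 5.85 and 3.42 CPM in mutant EOM, against 1.11, 1.44 and 1.43 CPM in WT EOM, and 3.78, 2.47 and 4.16 CPM in mutant trunk, against 0.384, 0.377 and 0.352 CPM in WT trunk. Its genotypes were widely separated in both muscles (log2 fold change 2.42 ± 0.26 with adjusted p = 2.93e-05, edgeR). A second gene of that symbol, NPC2 ENSDARG00000090912.6, rose by 0.39 ± 0.092 (log2), but was not consistent in both muscles. Cathepsin S gene ctss2.2, a protease of antigen-presenting cells, had 28.6, 26.9 and 21.4 CPM in mutant EOM, against 15.3, 16.6 and 15.4 CPM in WT EOM, and 19.8, 15.2 and 16.6 CPM in mutant trunk, against 6.38, 6.65 and 7.27 CPM in WT trunk, with no overlap (log2 fold change 1.01 ± 0.13 with adjusted p = 0.00013, edgeR). Smaller increases were seen in the lysosomal lipase gene LIPA (0.53 ± 0.092), the tetraspanin gene CD63 (0.43 ± 0.086) and the collagen-degrading cathepsin gene CTSK (0.45 ± 0.099). The lower gene was the cathepsin L gene ctsl.1 (log2 fold change −1.69 ± 0.47 with adjusted p = 0.0281, edgeR), at a low level in both genotypes. It was too low in EOM for a separate fit there, so it was not counted as consistent. The summed level of the list was 1790 to 1970 CPM in mutant EOM, against 1620 to 1830 CPM in WT EOM, ranges that overlapped, and 1450 to 1550 CPM in mutant trunk, against 1150 to 1360 CPM in WT trunk. The leukocyte sums above differed in the same direction, and their part in it was not tested.

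Extracellular matrix genes formed the other large group of increases. Of 39 tested collagen genes, 14 were called higher and 2 lower, and the median log2 fold change was 0.36 (0.39 in EOM and 0.47 in trunk). Genes of collagen VI, a microfibril around muscle fibres, rose together. COL6A3 had 121, 129.8 and 131 CPM in mutant EOM, against 79.4, 82.5 and 86.3 CPM in WT EOM, and 67.4, 64.4 and 70.6 CPM in mutant trunk, against 44.2, 43 and 54.8 CPM in WT trunk. No mutant library of a muscle overlapped its WT libraries (log2 fold change 0.57 ± 0.085 with adjusted p = 0.000543, edgeR). The partner chains rose by 0.53 ± 0.093 for col6a1 and by 0.51 ± 0.094 for COL6A2. The fibril-associated collagen genes col16a1 (log2 fold change 0.69 ± 0.098 with adjusted p = 0.000349, edgeR) and COL12A1 (log2 fold change 0.63 ± 0.12 with adjusted p = 0.00222, edgeR) rose, as did the main fibrillar chain genes col1a1a (0.76 ± 0.17) and COL1A2 (0.69 ± 0.18). COL1A2 was not consistent in both muscles. Its levels were 275 ± 52.7 CPM in mutant EOM and 201 ± 32.1 CPM in WT EOM, and trunk levels were 167 ± 14.8 CPM in mutants and 88.2 ± 38.6 CPM in WT (mean ± SD, n = 3 each). The 2 lower members were col15a1b (−0.63 ± 0.13) and COL4A1 (−0.56 ± 0.16), while col18a1b, which like them encodes a collagen of basement membranes, rose (0.50 ± 0.10). COL4A1 was not consistent in both muscles.

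Among 88 other matrix genes, 20 were called higher and 1 lower (median log2 fold change 0.25), a share of 23.9% against 12.1% of all genes. Of the 20, 16 were consistent in both muscles. The gene of the gelatin-cutting enzyme matrix metalloproteinase 2, MMP2, had 399.9, 422 and 361 CPM in mutant EOM, against 232, 218 and 256 CPM in WT EOM, and 120.0, 122 and 117 CPM in mutant trunk, against 67.3, 70 and 83.3 CPM in WT trunk. EOM levels were several times those of trunk in either genotype, and the mutant excess was present in each muscle (log2 fold change 0.72 ± 0.087 with adjusted p = 9.43e-05, edgeR). TIMP2, an inhibitor of that enzyme which also takes part in its activation, had 73.8, 59.7 and 48.7 CPM in mutant EOM, against 33.1, 31 and 33.3 CPM in WT EOM, and 51.1, 52.3 and 36.6 CPM in mutant trunk, against 19.5, 20.4 and 17.6 CPM in WT trunk, with mutants above WT throughout (log2 fold change 1.09 ± 0.12 with adjusted p = 6.43e-05, edgeR). The membrane-bound activator MMP14 ENSDARG00000002235.8 had 63.7, 67.7 and 60.9 CPM in mutant EOM, against 46.4, 44.7 and 44.7 CPM in WT EOM, and 48.5, 46.8 and 42.7 CPM in mutant trunk, against 31.1, 28.6 and 30.8 CPM in WT trunk (log2 fold change 0.55 ± 0.075 with adjusted p = 0.000252, edgeR). Increases were also called in the collagen-crosslinking oxidase genes LOXL1 (0.55 ± 0.08) and LOXL4 (0.74 ± 0.15), the proteoglycan gene DCN (0.56 ± 0.10), the injury-associated matrix genes TNC (0.47 ± 0.14) and POSTN (0.45 ± 0.10), and both fibronectin genes, FN1 ENSDARG00000006526.12 (0.43 ± 0.099) and FN1 ENSDARG00000019815.11 (0.40 ± 0.11).

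Markers of fibroblasts, the cells that make most of this matrix, moved in the same direction. Of 16 tested, 6 were called higher and none lower, a share of 37.5% against 12.1% of all genes, and all 16 fold changes were positive. Several of the 16 are themselves matrix genes, such as DCN, COL1A2 and COL5A1. Their sum was 1150 to 1390 CPM in mutant EOM, against 941 to 1010 CPM in WT EOM, and 470 to 544 CPM in mutant trunk, against 297 to 377 CPM in WT trunk. The called markers that are not matrix genes were the growth-factor-receptor-like gene PDGFRL (0.52 ± 0.10), the mesenchymal cadherin gene CDH11 (0.42 ± 0.10) and the homeobox gene PRRX1 (0.41 ± 0.12). Of the 6 calls, 3 were consistent in both muscles, and PRRX1, COL1A2 and COL5A1 were not. The part of fibroblasts in the matrix results was not tested. Endothelial markers had mostly negative fold changes, with 3 of 24 positive. Of the 24, 3 were called lower and none higher. This was a share of 12.5%, against 12.1% of all genes called in either direction and 5.23% called lower. Of the 3 calls, 2 were consistent in both muscles. The sum was 307 to 329 CPM in mutant EOM, against 352 to 454 CPM in WT EOM, and 608 to 686 CPM in mutant trunk, against 727 to 820 CPM in WT trunk. The endothelial junction gene cdh5 had the lowest adjusted p of these markers (log2 fold change −0.61 ± 0.091 with adjusted p = 0.000514, edgeR). The lymphatic vessel gene lyve1a had a larger estimate (log2 fold change −1.18 ± 0.35 with adjusted p = 0.0438, edgeR), but was not consistent in both muscles. Its EOM levels were 3.41 ± 1.3 CPM in mutants and 6.76 ± 6.24 CPM in WT (mean ± SD, n = 3 each).

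Signalling genes of fibrosis were called in both directions at about the background share. Of 48 tested, 3 were higher and 3 lower. The receptor gene TGFBR2 rose (log2 fold change 0.45 ± 0.10 with adjusted p = 0.00911, edgeR), the follistatin-like gene FSTL1 rose (log2 fold change 0.40 ± 0.094 with adjusted p = 0.011, edgeR), and the procollagen protease gene BMP1 fell (log2 fold change −1.60 ± 0.28 with adjusted p = 0.00154, edgeR). Among 72 growth factor, chemokine and hormone genes, 9 were called higher and 5 lower, a share of 19.4% against 12.1% of all genes. The chemokine gene cxcl12b, whose product attracts CXCR4-bearing cells, had 34.4, 32.2 and 31.4 CPM in mutant EOM, against 7.02, 11.2 and 9.93 CPM in WT EOM, and 50.5, 69.8 and 60.1 CPM in mutant trunk, against 18.9, 19.1 and 25.7 CPM in WT trunk. The genotypes were separated by a wide gap in each muscle (log2 fold change 1.65 ± 0.13 with adjusted p = 2.57e-06, edgeR). The scavenging receptor of this chemokine, ACKR3, rose (log2 fold change 2.11 ± 0.31 with adjusted p = 0.000797, edgeR), as did the signalling receptor CXCR4 ENSDARG00000041959.7 (log2 fold change 0.52 ± 0.14 with adjusted p = 0.0199, edgeR). The call of CXCR4 was not consistent in both muscles. CRYM, the gene of a thyroid-hormone-binding protein of the cytosol, had 3.9, 6.81 and 6.91 CPM in mutant EOM, against 0.836, 0.903 and 1.07 CPM in WT EOM, and 2.24, 2.81 and 5.96 CPM in mutant trunk, against 0.744, 0.929 and 0.528 CPM in WT trunk, with every mutant library above every WT library (log2 fold change 2.49 ± 0.25 with adjusted p = 2.18e-05, edgeR). The translation repressor gene eif4ebp1, a target of mTOR signalling, fell (log2 fold change −0.74 ± 0.091 with adjusted p = 0.000103, edgeR).

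**Figure D5:**
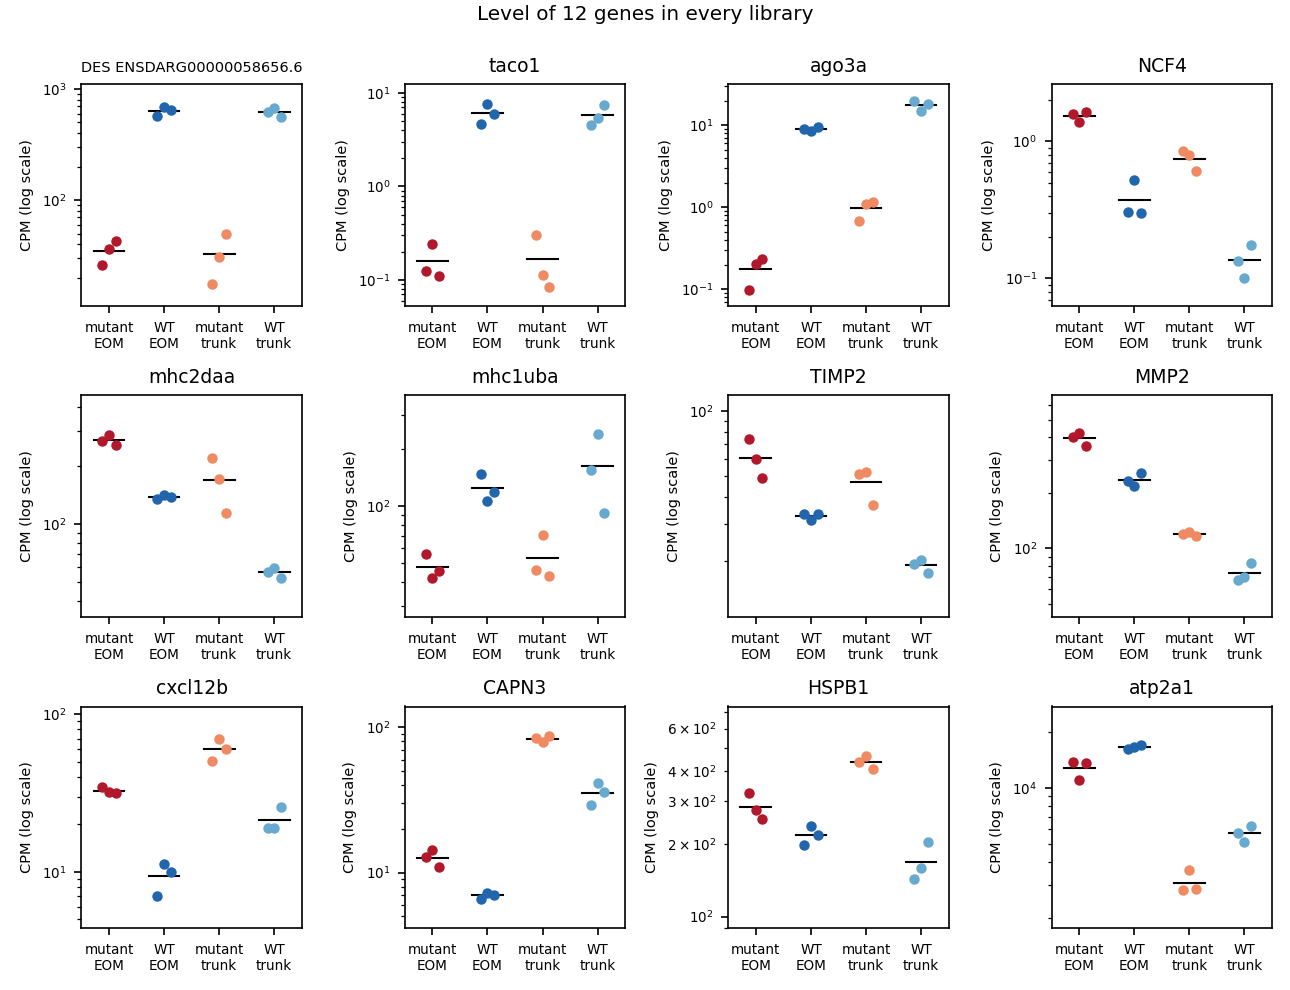
Level of 12 genes in each of the 12 libraries (vertical axes, CPM on log scales that differ between panels), by group, with black lines at the group means of 3 libraries. In each panel the 3 mutant libraries lie all above or all below the 3 WT libraries of the same muscle, as the choice among consistent genes requires. DES, taco1, ago3a, mhc1uba and atp2a1 are lower in mutants and the other 7 genes higher.

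Genes of the filament system and the sarcomere were called in both directions. Of 42 intermediate filament and linker genes, 2 were called higher and 3 lower, DES among the lower. This was a share of 11.9% against 12.1% of all genes. The gene sync, for syncoilin, a muscle intermediate filament protein that binds desmin, had 152, 123 and 106.5 CPM in mutant EOM, against 82.2, 91 and 89.7 CPM in WT EOM, and 31, 44.5 and 28.4 CPM in mutant trunk, against 20.7, 19.5 and 18.9 CPM in WT trunk, higher in each muscle without overlap (log2 fold change 0.67 ± 0.12 with adjusted p = 0.00225, edgeR). The nuclear lamina gene LMNA also rose (log2 fold change 0.41 ± 0.10 with adjusted p = 0.0156, edgeR), but was not consistent in both muscles. Of 58 Z-disc and stretch genes, 8 were called higher and 2 lower, a share of 17.2%. Of these 10 calls, 5 held whichever single library was dropped. Of the 8 higher genes 3 were consistent in both muscles, and of the 2 lower genes 1. The gene synpo2la, of a Z-disc actin-binding protein, had 17.9, 23.2 and 32.3 CPM in mutant EOM, against 52.1, 51.1 and 58.5 CPM in WT EOM, and 70.6, 65 and 92.9 CPM in mutant trunk, against 108.3, 147 and 109.2 CPM in WT trunk. Mutants were lower in each muscle (log2 fold change −0.91 ± 0.15 with adjusted p = 0.00139, edgeR). Increases were called in the Z-disc adaptor gene ldb3a (log2 fold change 0.52 ± 0.10 with adjusted p = 0.00369, edgeR), the filamin gene flnb (log2 fold change 0.65 ± 0.13 with adjusted p = 0.00422, edgeR) and the alpha-actinin gene actn2b (log2 fold change 0.52 ± 0.14 with adjusted p = 0.0274, edgeR). The Z-disc gene myot, for myotilin, fell (log2 fold change −0.41 ± 0.11 with adjusted p = 0.0274, edgeR).

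The FHL genes encode proteins of LIM domains that act as adaptors at the Z-disc and in the nucleus, and fhl2b is named in the title of the series. The symbol table gives FHL2 to 2 gene IDs without telling which is fhl2b. FHL2 ENSDARG00000003991.8 had 186, 161 and 177 CPM in mutant EOM, against 96 to 111.3 CPM in WT EOM, and 5.34, 11 and 7.28 CPM in mutant trunk, against 4.49, 4.72 and 3.62 CPM in WT trunk. Levels were far higher in EOM than in trunk in both genotypes, and mutants exceeded WT in each muscle (log2 fold change 0.80 ± 0.14 with adjusted p = 0.00207, edgeR). FHL2 ENSDARG00000042018.7 did not pass (log2 fold change 0.14 ± 0.099 with adjusted p = 0.399, edgeR). Of the 7 FHL genes tested, FHL2 ENSDARG00000003991.8 was the 1 called, a share of 14.3% against 12.1% of all genes.

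In the dystrophin complex and costamere list, 5 of 48 genes were called higher and 2 lower, a share of 14.6% against 12.1% of all genes. Of the 7 calls, 3 held in every fit without a single library. The membrane skeleton gene SPTAN1 rose (log2 fold change 0.50 ± 0.097 with adjusted p = 0.00357, edgeR), as did the sarcoglycan gene sgcg (log2 fold change 0.54 ± 0.12 with adjusted p = 0.0108, edgeR). The call of sgcg was not consistent in both muscles. POMT2, an enzyme gene that starts the sugar chain of dystroglycan, fell (log2 fold change −0.52 ± 0.12 with adjusted p = 0.00802, edgeR). The call of the adhesion adaptor gene lims1 was close to the threshold (log2 fold change 0.25 ± 0.077 with adjusted p = 0.0499, edgeR) and was lost in 11 of the 12 fits without a single library. Membrane repair and calpain genes were called more often, 10 higher and 3 lower of 44, a share of 29.5% against 12.1% of all genes. CAPN3, the muscle calpain gene whose loss causes a limb-girdle dystrophy in people, had 12.8, 14.2 and 10.9 CPM in mutant EOM, against 6.61, 7.28 and 6.98 CPM in WT EOM, and 83.9, 78.8 and 87.1 CPM in mutant trunk, against 29.2, 41.1 and 35.8 CPM in WT trunk. Mutant levels were clearly above WT levels in each muscle (log2 fold change 1.05 ± 0.11 with adjusted p = 2.51e-05, edgeR). The annexin genes anxa5b (0.47 ± 0.083), ANXA4 (0.59 ± 0.10) and anxa3b (0.60 ± 0.11), for calcium-dependent membrane-binding proteins, were also higher, and the ferlin gene FER1L6 was lower (log2 fold change −1.61 ± 0.27 with adjusted p = 0.00149, edgeR). Annexins and bin2b, a membrane-bending protein gene (0.83 ± 0.13), are also active in leukocytes, and the part of those cells was not tested.

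Contractile genes included 7 calls up and 2 down of 70, a share of 12.9% against 12.1% of all genes. Genes that share the symbol TNNI2, for fast troponin I, the inhibitory subunit of the thin filament, moved in opposite directions. TNNI2 ENSDARG00000029995.9 had 693, 569 and 552 CPM in mutant EOM, against 843, 1099 and 766 CPM in WT EOM, and 1080, 1448 and 1147 CPM in mutant trunk, against 2971, 2393 and 1868 CPM in WT trunk. Mutants were lower in both muscles (log2 fold change −0.78 ± 0.14 with adjusted p = 0.00243, edgeR). TNNI2 ENSDARG00000045592.6 had 2.56, 2.66 and 1.68 CPM in mutant EOM, against 0.881, 0.547 and 1.15 CPM in WT EOM, and 5.78, 5.26 and 6.49 CPM in mutant trunk, against 1.13, 2.41 and 1.41 CPM in WT trunk. Mutants were higher in both muscles (log2 fold change 1.63 ± 0.22 with adjusted p = 0.00024, edgeR). TNNI2 ENSDARG00000035958.9 was higher as well, by 0.57 in EOM and 2.84 in trunk on the log2 scale, and its effect differed between the muscles (edgeR, adjusted p = 0.00426). TNNT2, the cardiac-type troponin T gene, rose (log2 fold change 0.88 ± 0.16 with adjusted p = 0.0026, edgeR), and so did the fast myosin gene myhb (log2 fold change 1.86 ± 0.49 with adjusted p = 0.0327, edgeR). For myhb the log2 fold change was 0.723 in EOM and 3.08 in trunk, a difference that did not pass its own test (edgeR, adjusted p = 0.222). Reads that mapped to several places were not counted, so near-identical members of these families can be understated.

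Calcium handling genes were mostly called downward. Of 62 tested, 1 was called higher and 8 lower (median log2 fold change −0.12), a share of 14.5% against 12.1% of all genes. The calcium pump gene of the sarcoplasmic reticulum of fast fibres, atp2a1, had 13754, 10968 and 13632 CPM in mutant EOM, against 16225, 16538 and 17135 CPM in WT EOM, and 2821, 3641 and 2849 CPM in mutant trunk, against 5700, 5142 and 6263 CPM in WT trunk. Mutants lay under WT in each muscle (log2 fold change −0.63 ± 0.12 with adjusted p = 0.00329, edgeR). The calcium-binding luminal protein gene hrc had 331, 292 and 315 CPM in mutant EOM, against 437, 409 and 428 CPM in WT EOM, and 67.1, 77.1 and 61.8 CPM in mutant trunk, against 129.7, 90.4 and 90.6 CPM in WT trunk, in the same pattern (log2 fold change −0.52 ± 0.11 with adjusted p = 0.00512, edgeR). The calcium entry genes STIM1 (−0.82 ± 0.22) and ORAI1 (−0.37 ± 0.098) fell as well, as log2 fold change ± SE. STIM1 was not consistent in both muscles. The 1 higher gene was trdn, for triadin, which anchors proteins at the calcium release channel (log2 fold change 0.35 ± 0.089 with adjusted p = 0.0191, edgeR). Of these 9 calls, 2 held whichever single library was dropped.

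Part of the mitochondrial genes fell. Of 59 assembly, fat oxidation and regulator genes, 11 were called lower and none higher, with a median log2 fold change of −0.16. Beside taco1, the carnitine transferase gene cpt1ab, which admits long fatty acids to mitochondria, had 64, 56.6 and 65.4 CPM in mutant EOM, against 91.3, 107.4 and 105.98 CPM in WT EOM, and 41.4, 65.2 and 63 CPM in mutant trunk, against 114, 88.7 and 168 CPM in WT trunk. All mutant libraries of a muscle were below its WT libraries (log2 fold change −0.92 ± 0.16 with adjusted p = 0.00153, edgeR). The acyl-CoA dehydrogenase gene ACADSB had 34.2, 31.1 and 32.7 CPM in mutant EOM, against 53, 65.7 and 61.1 CPM in WT EOM, and 50.1, 56.8 and 51.2 CPM in mutant trunk, against 79.6, 72.2 and 74.1 CPM in WT trunk, likewise without overlap (log2 fold change −0.69 ± 0.094 with adjusted p = 0.000247, edgeR). The heme enzyme gene COX10 (−0.46 ± 0.095) and the mitochondrial RNA-binding gene LRPPRC (−0.42 ± 0.12) fell too. Leaving out single libraries kept 4 of the 11 calls in every fit.

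The respiratory chain itself held few calls. Of 91 nuclear genes, 1 was called higher and 1 lower, a share of 2.2% against 12.1% of all genes, and 9 of 91 fold changes were positive (median −0.17). The summed level was 24700 to 32200 CPM in mutant EOM, against 44900 CPM in WT EOM replicate 2 and 29100 and 29200 CPM in the other WT EOM libraries, and 39100 to 52000 CPM in mutant trunk, against 44800 to 50800 CPM in WT trunk. Without WT EOM replicate 2, 39 of 91 fold changes were positive and the median was −0.0138, against −0.0141 over all genes of that fit. The lower one was UQCRH, of complex III (log2 fold change −0.61 ± 0.16 with adjusted p = 0.0209, edgeR). The higher one was cox6b1, of complex IV, with 71.1, 50.8 and 50.2 CPM in mutant EOM, against 39.3, 47.9 and 24.3 CPM in WT EOM, and 43.3, 62.8 and 40.7 CPM in mutant trunk, against 25.5, 19.1 and 14.9 CPM in WT trunk. Its mutant libraries exceeded WT in each muscle (log2 fold change 0.96 ± 0.20 with adjusted p = 0.00716, edgeR). The 13 protein genes of the mitochondrial genome all had negative fold changes, also without that library (median −0.22, and −0.214 without it), and MT-CO2 was called (log2 fold change −0.38 ± 0.10 with adjusted p = 0.0202, edgeR). Their sum was 113000 to 122000 CPM in mutant EOM, against 130000 to 142000 CPM in WT EOM, and 124000 to 139000 CPM in mutant trunk, against 143000 to 168000 CPM in WT trunk. These 13 genes lie on 1 mitochondrial genome and are not independent.

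In glycolysis and glycogen metabolism, 2 of 64 genes were called higher and 5 lower, a share of 10.9% against 12.1% of all genes. Genes of the enzymes that set the level of fructose 2,6-bisphosphate, an activator of glycolysis, moved apart. PFKFB2 had 21, 19.6 and 23.8 CPM in mutant EOM, against 30.3, 32 and 42.4 CPM in WT EOM, and 30.6, 36.2 and 38.8 CPM in mutant trunk, against 66.4, 59.5 and 59.2 CPM in WT trunk, lower in mutants (log2 fold change −0.76 ± 0.10 with adjusted p = 0.000252, edgeR). PFKFB4 had 52.3, 118 and 66.2 CPM in mutant EOM, against 29.8, 46.1 and 22.5 CPM in WT EOM, and 87, 64.6 and 163 CPM in mutant trunk, against 35.6, 44.7 and 55 CPM in WT trunk, higher in mutants (log2 fold change 1.24 ± 0.26 with adjusted p = 0.00785, edgeR). Phosphoglycerate mutase gene pgam1b fell (log2 fold change −0.78 ± 0.13 with adjusted p = 0.00103, edgeR), as did the glycogen phosphorylase gene PYGM (log2 fold change −0.41 ± 0.11 with adjusted p = 0.0242, edgeR).

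Of 55 chaperone genes, 2 were called higher and 4 lower, a share of 10.9% near the 12.1% of all genes. The small heat shock gene HSPB1 had 326, 276 and 254 CPM in mutant EOM, against 198, 236 and 217 CPM in WT EOM, and 438, 463 and 409 CPM in mutant trunk, against 143, 159 and 204 CPM in WT trunk. Mutants were higher in each muscle (log2 fold change 0.88 ± 0.17 with adjusted p = 0.0031, edgeR). The log2 fold change was 0.40 in EOM and 1.39 in trunk, and the difference between them did not pass its own test (edgeR, adjusted p = 0.126). HSP90B1, the chaperone gene of the endoplasmic reticulum, fell (log2 fold change −0.65 ± 0.14 with adjusted p = 0.00561, edgeR), as did the co-chaperone gene BAG2 (log2 fold change −0.79 ± 0.15 with adjusted p = 0.00333, edgeR). Of the sensors of the unfolded protein response, a pair rose: EIF2AK3, the gene of the kinase PERK, had 5.97, 5.26 and 5.29 CPM in mutant EOM, against 2.26, 1.69 and 2.94 CPM in WT EOM, and 3.97, 2.96 and 3.93 CPM in mutant trunk, against 1.47, 1.51 and 1.68 CPM in WT trunk (log2 fold change 1.24 ± 0.14 with adjusted p = 7.64e-05, edgeR), and ern1, the gene of the sensor IRE1, had 5.93, 7.04 and 8.72 CPM in mutant EOM, against 3.75, 3.09 and 4.1 CPM in WT EOM, and 6.41, 5.89 and 6.61 CPM in mutant trunk, against 3.34, 2.89 and 2.87 CPM in WT trunk (log2 fold change 1.02 ± 0.12 with adjusted p = 7.69e-05, edgeR). These genes were higher in every mutant library than in any WT library of the same muscle. The gene of the other sensor, atf6, fell (log2 fold change −0.38 ± 0.094 with adjusted p = 0.0144, edgeR). In the list of stress pathways 6 of 48 genes were called higher and 2 lower (16.7%). The amino acid transporter chain gene slc3a2a was among the higher (log2 fold change 0.69 ± 0.11 with adjusted p = 0.0011, edgeR). Of 59 atrophy, ubiquitin ligase and autophagy genes, none was called higher and BNIP3L, a mitophagy receptor gene, was the 1 lower (log2 fold change −0.58 ± 0.11 with adjusted p = 0.00366, edgeR), a share of 1.69% against 12.1% of all genes. The atrophy ligase genes FBXO32 and trim63a, named after their values were seen, had log2 fold changes of 0.34 (edgeR, adjusted p = 0.391) and 0.37 (edgeR, adjusted p = 0.516).

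Antioxidant genes were split, 4 higher and 4 lower of 48, a share of 16.7% against 12.1% of all genes. The thioredoxin gene txnb had 9.37, 11.3 and 7.69 CPM in mutant EOM, against 5.89, 5.1 and 3.25 CPM in WT EOM, and 16, 11.6 and 15.2 CPM in mutant trunk, against 0.564, 0.251 and 0.704 CPM in WT trunk, higher in mutants of both muscles and most of all in trunk (log2 fold change 2.58 ± 0.66 with adjusted p = 0.0274, edgeR). The peroxidase gene prdx5 rose (log2 fold change 0.62 ± 0.13 with adjusted p = 0.00573, edgeR), and the extracellular superoxide dismutase gene SOD3 fell (log2 fold change −1.67 ± 0.30 with adjusted p = 0.00208, edgeR). Immediate early genes were also split, 2 higher and 2 lower of 39, a share of 10.3%. Decreases were called in ier2b (log2 fold change −0.71 ± 0.13 with adjusted p = 0.00193, edgeR) and ier2a (log2 fold change −0.39 ± 0.092 with adjusted p = 0.0114, edgeR). FOSL1 was among the higher (log2 fold change 0.74 ± 0.18 with adjusted p = 0.0123, edgeR). Of 43 clock genes, 1 was called higher and 1 lower, a share of 4.65% against 12.1% of all genes, and neither was consistent. The lower one, the output factor gene hlfa (log2 fold change −0.52 ± 0.15 with adjusted p = 0.0359, edgeR), lost its call in 8 of the 12 fits without a single library.

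Muscle stem cell and myogenic genes were called at a share below the background, 3 higher and 1 lower of 46. The membrane fusion gene MYMK, needed for myoblasts to fuse, had 2.77, 3.22 and 3.35 CPM in mutant EOM, against 1.85, 1.12 and 2.45 CPM in WT EOM, and 0.543, 0.494 and 0.628 CPM in mutant trunk, against 0.113, 0.176 and 0.101 CPM in WT trunk. Mutants exceeded WT in each muscle (log2 fold change 1.21 ± 0.26 with adjusted p = 0.0071, edgeR). The cofactor gene EYA4 fell (log2 fold change −0.38 ± 0.096 with adjusted p = 0.0172, edgeR). At the neuromuscular junction 5 of 44 genes were called, all higher, and 4 of the 5 were consistent in both muscles. This was a share of 11.4%, against 12.1% of all genes called in either direction and 6.85% called higher. The median log2 fold change of the 44 genes was −0.0118, and 21 of 44 values were positive. CHRNG, the fetal subunit of the muscle acetylcholine receptor, which adult fibres re-express after loss of their nerve in mammals, had 7.89, 6.74 and 8.02 CPM in mutant EOM, against 4.75, 5.66 and 4.84 CPM in WT EOM, and 8.19, 5.76 and 5.75 CPM in mutant trunk, against 3.63, 2.81 and 3.04 CPM in WT trunk, with no overlap in either muscle (log2 fold change 0.80 ± 0.14 with adjusted p = 0.00134, edgeR). The adhesion genes NCAM1 ENSDARG00000056181.8 (0.85 ± 0.18) and NCAM1 ENSDARG00000007220.12 (0.57 ± 0.17) rose, as did ky, the gene of a Z-disc-linked transglutaminase-like protein, with 2.57, 2.78 and 3.37 CPM in mutant EOM, against 1.6, 1.11 and 1.94 CPM in WT EOM, and 8.75, 8.38 and 8.95 CPM in mutant trunk, against 2.68, 4.02 and 2.14 CPM in WT trunk (log2 fold change 1.24 ± 0.19 with adjusted p = 0.000566, edgeR). The secreted synaptic protein gene lgi1a was higher too (log2 fold change 0.86 ± 0.16 with adjusted p = 0.00248, edgeR). Of 26 nerve and Schwann cell markers, 2 were called higher and none lower. This was a share of 7.69%, against 12.1% of all genes called in either direction and 6.85% called higher. The summed level of the markers was 1770 to 1850 CPM in mutant EOM, against 1740 to 2010 CPM in WT EOM, and 633 to 704 CPM in mutant trunk, against 558 to 715 CPM in WT trunk, so these ranges overlapped.

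Cell cycle genes gave calls and a median of opposite sign. All 5 calls among 46 genes were lower in mutants, a share of 10.9% against 12.1% of all genes called in either direction and 5.23% called lower. The median log2 fold change was 0.25, and 33 of 46 values were positive. RRM2, of the enzyme that makes DNA building blocks, had 0.0994, 0.217 and 0.0415 CPM in mutant EOM, against 0.881, 2.03 and 1.06 CPM in WT EOM, and 0.217, 0.076 and 0.0418 CPM in mutant trunk, against 0.316, 0.502 and 0.654 CPM in WT trunk. Mutants were lower in each muscle, on 44 reads in the mutant and 349 reads in the WT libraries (log2 fold change −2.89 ± 0.46 with adjusted p = 0.000856, edgeR). The spindle checkpoint gene bub1bb (log2 fold change −1.70 ± 0.32 with adjusted p = 0.00285, edgeR) and the replication helicase gene MCM7 (log2 fold change −0.63 ± 0.12 with adjusted p = 0.00386, edgeR) were lower as well. These 5 calls held whichever single library was dropped.

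The mutated genes' surroundings were looked at by gene order alone. In the RefSeq gene table of assembly GRCz12tu, a different build from that of the counts, 13057 tested genes could be matched by unique symbols, and 7.44% of them were consistent. Among those within 100 genes on each side of desma, 9 of 86 were consistent (10.5%), and within 100 genes of desmb 9 of 77 (11.7%), among them tmtops2a and the collagen gene col18a1b. The chromosome that carries desma had 58 consistent genes of 465, or 12.5%, the highest share of the 25 chromosomes, and that of desmb had 37 of 571, or 6.48%. Differences between the genotypes at linked sites were not measured.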

How the data were processed

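RNA of dissected EOM and trunk muscle was sequenced from poly-A selected, stranded libraries, per the labels' protocols. The authors deposited 1 table per library, which holds raw read counts for 32520 genes. The submitters' processing notes name STAR, DESeq2 and the genome build GRCz11, without versions, and the annotation is not given in the sources used here. The column of counts with about 97 in 100 stranded reads was taken as sense; the other strand held 2.77% to 3.21%. The tables' 4 tallies of reads outside genes (unmapped 7.93% to 14.3%, several places 9.96% to 11.4%, no gene 5.93% to 9.57%, ambiguous 1.34% to 1.59% of reads) were left out. A symbol table named 29201 of the IDs.

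Counts of all 12 libraries were fitted in edgeR 4.0.16 (R 4.3.3; TMM, filterByExpr, robust quasi-likelihood) with muscle and genotype as additive terms, and p-values were adjusted by Benjamini-Hochberg over all 19687 tested genes. The fit of both muscles was also run on counts drawn independently from its own fitted means and spread, with an outcome not reported here. Such counts cannot show how pairs or batches of libraries would affect the fit. The edgeR test was also run per muscle and for the difference between muscles. TMM factors were 0.71 to 1.38. Standard errors are those implied by the F statistic. Floors of 3 reads cover counting error only, since reads carried no molecular identifiers.

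Named genes were the mutated and title genes, the 12 largest increases and decreases among consistent genes with an own symbol and a mean of at least 1 CPM in a genotype, and up to 3 consistent members of each list by adjusted p. Others are examples from the called members, and some of these were not consistent in both muscles. Some of the genes this rule names are not reported here. The comparison, the gene lists and the named genes were chosen with earlier results of these data known. Alternatives were unscaled totals, DESeq2 1.42.0, limma 3.58.1 with voom, other filters, counts of either strand, a replicate block, summed libraries and leaving out each library.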

Additional observations from a re-analysis of the deposited data

Results flagged for a closer look

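The mutant effect differed between the muscles by a test of the difference itself for 18 genes, and each of the following values is a difference of log2 fold changes, EOM minus trunk. THBS4, a matrix glycoprotein gene of tendon and muscle attachment, had a difference of −2.36 ± 0.20 (edgeR, adjusted p = 0.000252), with 5.48, 4.83 and 4.33 CPM in mutant EOM, against 14.2, 13.2 and 14.6 CPM in WT EOM, and 37.8, 40 and 28.9 CPM in mutant trunk, against 17.8, 21 and 20.5 CPM in WT trunk. It was lower in mutants in every EOM library and higher in every trunk library, so that its effect over both muscles did not pass the test (log2 fold change −0.32 ± 0.38 with adjusted p = 0.65, edgeR). The respiratory chain gene ndufa4b had a difference of −2.26 ± 0.24 (edgeR, adjusted p = 0.00159), with 1.94, 1.58 and 2.12 CPM in mutant EOM, against 8.36, 9.06 and 6.79 CPM in WT EOM, and 5.52, 4.96 and 4.6 CPM in mutant trunk, against 4.11, 4.57 and 4.83 CPM in WT trunk. Its EOM libraries were clearly lower in mutants, while those of trunk were close together. The thioredoxin gene txnb, a consistent gene, had a difference of −3.82 ± 0.41 (edgeR, adjusted p = 0.00163), as it was higher in mutants of both muscles, by 0.99 in EOM and 4.83 in trunk on the log2 scale.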

How the results depend on the processing

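The number of genes changed in mutants over both muscles was 1930 to 3274 under the alternatives that kept all libraries, and 1852 to 2581 when a library was left out, against 2378. The number of consistent genes was 1287 to 1759 and 1489 to 1902, against 1459. The alternatives were counted by a looser rule, without the separate fits of each muscle, so these counts are not fully comparable with 1459. Leaving out a library also eases the rule that groups do not overlap. Of the 1459, 1169 were called whichever single library was dropped (761 higher, 408 lower), and 1458 were called by DESeq2. Fewer of them, 1278, were called when EOM and trunk libraries of one number were summed. Unscaled library totals shifted the balance of all calls to 1464 increases and 748 decreases, against 1349 and 1029 in the main fit. The count of genes whose effect differed between muscles was the least stable. It was 18, and 194 by DESeq2, 35 with no filter on low counts, 11 with a mean of at least 50 reads and 6 with the replicate block. Dropping single libraries gave 5 to 19: 5 without replicate 2 of either mutant group, 7 without replicate 1 of either mutant group and 8 without replicate 1 of either WT group. The causes were not tested. With the replicate block, 2213 genes were changed and 1494 were consistent by the looser rule. Deviations from the group means were correlated between same-numbered libraries of all pairs of groups, which gave −0.369 to 0.507, with 7 of 18 values above 0.1. Between EOM and trunk of one genotype, they were 0.473, −0.369 and −0.197 in WT and 0.0109, −0.24 and 0.133 in mutants. With 3 libraries a group, these values cannot tell whether same-numbered libraries came from the same animal. The numbers were not taken as pairs in the main fit. With EOM and trunk libraries of one number as correlated pairs, limma-voom called 3263 genes, and with such libraries summed edgeR called 2371. THBS4 turned to 0.0876 on summed libraries, not past the threshold. Of 98 named called genes, 92 held whichever library was dropped and 91 in every alternative of any kind; beside lims1 and hlfa, UQCRH, MT-CO2 and txnb lost their calls without single libraries, with highest adjusted p of 0.0533, 0.06 and 0.0684 (edgeR), and FSTL1 only on summed libraries (edgeR, adjusted p = 0.0921). Without single libraries, the median log2 fold change was 0.167 to 0.507 for cell cycle genes (without WT trunk replicates 2 and 3), up to 0.547 for collagens (WT trunk replicate 3), down to 0.0966 for lysosomal genes (mutant trunk replicate 1) and −0.0766 for calcium handling genes (WT trunk replicate 2). Depth limits statements on genes near 3 reads.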

Other observations

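Families of genes that share a symbol stem, looked at after the values were seen, showed further increases and decreases outside the lists or in larger families than the lists held. Of 235 stems with at least 10 tested genes, the 23 genes of the major histocompatibility complex held the largest share of consistent genes, with 9 higher and 3 lower in mutants, against 4.59% consistently higher and 2.82% consistently lower over all tested genes. The class I gene mhc1zda, of the zebrafish Z lineage, had 13.1, 13.6 and 14.2 CPM in mutant EOM, against 42.8, 41 and 47.1 CPM in WT EOM, and 14.3, 12.9 and 12.4 CPM in mutant trunk, against 38.5, 43.4 and 35.3 CPM in WT trunk. All mutant libraries lay far below all WT libraries and the values of the muscles overlapped (log2 fold change −1.62 ± 0.085 with adjusted p = 4.59e-08, edgeR), while mhc1lda (2.50 ± 0.21) and mhc1zka (2.83 ± 0.34) were higher in mutants. Of 25 genes of the ccl chemokine family, which attract leukocytes, 7 were consistently higher and 1 lower. They included ccl38.6 (log2 fold change 1.48 ± 0.18 with adjusted p = 9.55e-05, edgeR) and ccl39.5 (log2 fold change 1.96 ± 0.26 with adjusted p = 0.000178, edgeR). Of 12 toll-like receptor genes, which sense microbial molecules, 3 were consistently higher, among them tlr1 (log2 fold change 1.03 ± 0.22 with adjusted p = 0.00629, edgeR). The 26 leukocyte genes called higher moved in the same direction, and their part was not tested. Many of these families hold near-identical copies, whose reads the counting can split or drop.

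Some genes of the mitochondrial import machinery fell. Of 15 timm genes, whose products carry proteins through or into the inner membrane, 5 were consistently lower and none higher, and the median log2 fold change was −0.34, against 2.82% consistently lower and a median of −0.03 over all genes. WT EOM replicate 2 was high in several of them, and without it 4 of the 15 were called lower, against 6 with all libraries, and the median was −0.135. TIMM50, a receptor gene of the inner membrane, had 7.21, 7.58 and 7.41 CPM in mutant EOM, against 9.51, 15.5 and 9.37 CPM in WT EOM, and 9.25, 10.1 and 11.9 CPM in mutant trunk, against 16.9, 16.5 and 18.5 CPM in WT trunk (log2 fold change −0.68 ± 0.12 with adjusted p = 0.00226, edgeR). The motor anchor gene TIMM44 (−0.39 ± 0.11) and the channel genes timm23a (−0.50 ± 0.11), timm23b (−0.73 ± 0.22) and TIMM17B (−0.69 ± 0.17) were lower as well. In each muscle the mutant libraries of these 5 genes lay under the WT libraries, which the definition of a consistent gene requires.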
